A study of Rattus norvegicus with 15 samples.

Results

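Homologous recombination repairs broken DNA by copying an intact sister sequence, and the DNA damage checkpoint halts the cell cycle while that repair runs. Expression of 9 genes of these systems was examined in rat hepatocytes sorted by DNA content: Brca1, Brca2, Rad51ap1, Fancd2, Fanci, Exo1, Blm, Chek1 and Chek2. The cells, from female Wistar rats, were stained with Hoechst33342 and separated into fractions with a DNA content of 2c, 4c or 8c, where 2c is that of a diploid cell before replication. In each of 5 experiments the 3 fractions were each hybridised to a one-colour expression array, which gave 15 arrays and n = 5 per fraction. Experiments 1 to 5 used rats aged 12, 14, 6, 5 and 6 weeks, and no genotype or treatment is given. A probe belonged to the set when the name on the array was one of the 9 symbols. By that name 8 of the 9 genes were found, and Blm, listed there under an Ensembl transcript identifier, was found through its probe description. The set comprised 15 probes out of 45598 on the array, and 6 of the 9 genes entered the tests, among 16683 tested features.

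As background, Brca1 acts early in the choice of recombination and helps to bring Brca2 to the break. Brca2 acts after it on the single-stranded DNA, and Rad51ap1 stimulates strand invasion. Exo1 is the nuclease that lengthens the single-stranded end, and Blm is a RecQ helicase that acts both in this resection and in taking apart the joined molecules later on. Fancd2 and Fanci form the pair that is ubiquitinated in the Fanconi anaemia pathway of crosslink repair. Chek1 and Chek2 are kinases of the checkpoint, downstream of Atr and Atm respectively. In most tissues recombination genes are transcribed mainly in cells that cycle, and few hepatocytes of the adult liver do so. A stain for DNA measures content per cell, so a diploid cell that has replicated its DNA has the same content as a tetraploid cell before replication.

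The sequences below come from the RefSeq promoter table of the GRCr8 assembly, which runs from 250 bases before to 50 bases after the annotated start of a gene, written 5′ to 3′ along the strand of the gene. They are shown because Brca1 and Rad51ap1 each passed a test between fractions, and Chek1, which passed none, is shown beside them. Capitals mark matches to an E2F-type motif, the kind of element bound by the E2F factors of the G1 to S transition.
Brca1, chr10:86977532-86977831, minus strand: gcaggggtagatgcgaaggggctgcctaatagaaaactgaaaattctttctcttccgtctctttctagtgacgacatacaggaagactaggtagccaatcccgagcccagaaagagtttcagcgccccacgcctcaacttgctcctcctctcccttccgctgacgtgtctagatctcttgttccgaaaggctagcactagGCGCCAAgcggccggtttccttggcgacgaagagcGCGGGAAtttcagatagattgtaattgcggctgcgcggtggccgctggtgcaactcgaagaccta
Rad51ap1, chr4:161458510-161458809, minus strand: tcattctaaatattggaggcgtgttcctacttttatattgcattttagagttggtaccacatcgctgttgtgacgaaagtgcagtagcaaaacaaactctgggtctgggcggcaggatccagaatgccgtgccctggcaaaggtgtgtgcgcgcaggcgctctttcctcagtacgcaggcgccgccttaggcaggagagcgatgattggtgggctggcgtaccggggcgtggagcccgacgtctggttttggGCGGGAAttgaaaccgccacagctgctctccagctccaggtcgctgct
Chek1, chr8:44629794-44630093, minus strand: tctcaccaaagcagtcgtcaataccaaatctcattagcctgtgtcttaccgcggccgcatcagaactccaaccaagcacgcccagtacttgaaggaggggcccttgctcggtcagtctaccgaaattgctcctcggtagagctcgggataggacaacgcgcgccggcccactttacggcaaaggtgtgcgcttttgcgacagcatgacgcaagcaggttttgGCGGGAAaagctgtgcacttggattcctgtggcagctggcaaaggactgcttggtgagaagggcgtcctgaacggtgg

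For this motif the core TTCCCGC was searched on both strands. The variant TTCGCGC was also searched, as were a further variant, TTGCCGC, and the last variant, which was TTGGCGC. Each capital run above is the reverse complement of one of these cores. The table held a promoter for 7 of the 9 genes, all but Blm and Chek2. Matches were present in 5 of the 7, namely Brca1, Rad51ap1, Fancd2, Fanci and Chek1, and 9.52% of the 33469 promoters in the table held one. Brca2 and Exo1 held no match to these letters in this window. The letters were settled after the promoters of these genes had been seen, when a longer form was shortened to the core that several of them held, so the share of 5 in 7 is not independent of the choice. A second motif, TTTGAA or TTCGAA on either strand, after the CHR element of genes expressed in G2 and mitosis, was found in Fanci alone and in 19.7% of all promoters. A match of letters is a description and not a binding site. Chek1, which passed no test, and Rad51ap1, which passed one, hold the same letters.

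The signals of these genes were low. Each probe carries a flag from the extraction software that says whether it was well above background, and 39.6% to 47.4% of all probes had it on an array. Of the 15 probes, 2 had the flag on all 15 arrays (Chek1 and the brighter Exo1 probe), 7 on at least 5 arrays and 4 on none. A probe was tested if it had the flag on at least 5 arrays, and the brightest tested probe stood for the gene. Signals of the 6 probes that stood for a gene ran from 2.06 to 55.3 intensity units, whereas the scaling point of an array, its 75th percentile over probes above background on all arrays, lay between 355.7 and 735.9 units. Levels below are log2 values relative to that point, so a level of 0 equals it. The levels of different probes depend on the probe and are not compared with each other. Fancd2, Fanci and Chek2 were not tested.

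**Figure D1:**
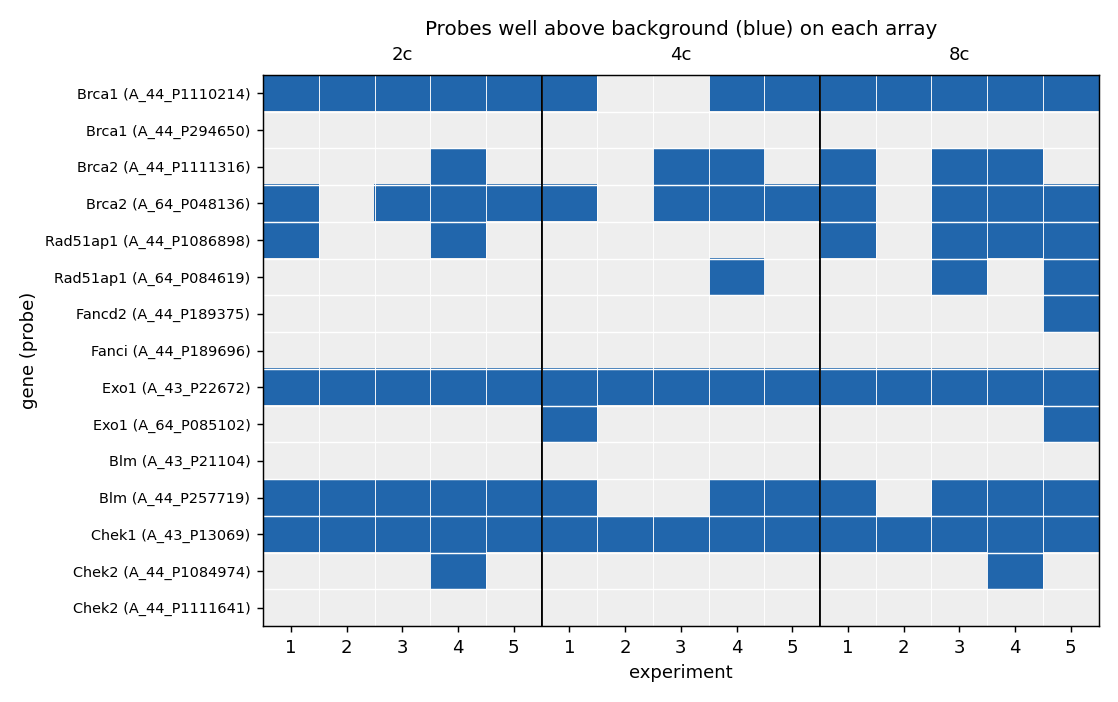
Probes of the 9 genes (rows) on the 15 arrays (columns, by DNA content and then by experiment number), with blue where the probe was well above background and grey where it was not. Chek1 and 1 Exo1 probe are blue on all 15 arrays, the Rad51ap1 probe A_44_P1086898 is blue on 2 arrays of 2c, 0 of 4c and 4 of 8c, and 4 probes are grey throughout.

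The 3 genes that were not tested, and the second Brca1 probe, rest on the probes below, which are given because their faint signals decide what can be said of these genes. Each is 60 bases long, and its coordinates on rn4, the build of the array files, span more than its length. They are written as in the array files, with the strand that the files give and no part in capitals.
Fancd2, A_44_P189375, chr4:149490916-149491599, plus strand: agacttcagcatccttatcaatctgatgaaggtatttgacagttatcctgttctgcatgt
Fanci, A_44_P189696, chr1:135195888-135196131, plus strand: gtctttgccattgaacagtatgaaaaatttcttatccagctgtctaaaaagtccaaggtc
Chek2, A_44_P1084974, chr12:45935141-45939179, minus strand: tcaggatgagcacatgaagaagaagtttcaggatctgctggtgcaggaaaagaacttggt
Brca1, A_44_P294650, chr10:90519749-90520715, minus strand: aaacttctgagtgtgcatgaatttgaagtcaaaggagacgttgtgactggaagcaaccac

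Fancd2 was above background on 1 array, the 8c array of experiment 5, at 11.2 units. Fanci was above background on no array, with signals of 1.69 to 6.48 units. The Chek2 probe shown was above background on 2 arrays, those of 2c and 8c in experiment 4, and the other Chek2 probe on none. For these genes the arrays therefore give only an upper bound in most samples, not a level. In a fit without the filter on dim probes none of the 3 passed in any comparison, with adjusted p between 0.435 and 0.985. Chek2 differed by 0.92 on the log2 scale between 8c and 4c in that fit (SE 0.25, adjusted p = 0.581), with 8c the higher in 5 of 5 experiments by measured signal. Outside experiment 4 neither array compared was above background, so the order there is not known. The other Chek2 probe differed by 0.15 between 8c and 4c.

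Brca1, the first of the recombination mediators, was lower in the 4c fraction than in the 2c fraction. In 2c its levels in experiments 1 to 5 were -4.87, -4.78, -4.70, -3.78 and -4.63. In 4c they were -6.15, -6.02, -7.10, -4.21 and -5.98, and in 8c -4.44, -5.57, -4.60, -3.49 and -4.54. The 4c fraction was the lowest of the 3 in every experiment, while across experiments the groups overlapped, since the 4c array of experiment 4 lay above all 2c arrays but that of its own experiment. The mean fell from -4.55 ± 0.44 in 2c to -5.89 ± 1.05 in 4c (SD, n = 5), a difference of -1.34 (SE 0.27, 95% interval -1.95 to -0.73, adjusted p = 0.0483, limma), or 2.53-fold lower in 4c. The probe was above background on 5 arrays of 2c and of 8c but on 3 of 5 arrays of 4c, those of experiments 1, 4 and 5. In 8c the mean was -4.53 ± 0.74, and the difference from 4c, 1.36 (SE 0.27, adjusted p = 0.0733), was positive in 5 of 5 experiments but did not pass.

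The Brca1 call lay close to the threshold. Without the experiment as a block its adjusted p was 0.478, and after another background correction (normexp, which adds an offset that compresses low signals) the difference was -0.36 (adjusted p = 0.185). It passed under 6 of 34 alternatives. With an experiment left out it passed in 0 of 5 cases, at adjusted p from 0.0513 to 0.224, and with an array left out in 2 of 15, the 2c array of experiment 4 and the 8c array of experiment 2. In a fit over all probes in place of 1 per gene its adjusted p was 0.054. The second Brca1 probe, on another part of the transcript, was above background on no array and gives no check.

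Rad51ap1 was higher in the 8c fraction than in the 4c fraction. Its levels in 4c were -6.55, -7.92, -6.75, -6.19 and -6.97 in experiments 1 to 5. In 8c they were -5.54, -6.31, -5.37, -5.10 and -5.55. In 2c they were -5.99, -7.08, -6.47, -5.31 and -5.30. Each 8c array lay above the 4c array of its own experiment, although the 8c array of experiment 2 lay below the 4c array of experiment 4, so the groups overlapped. The measured means were -6.88 ± 0.65 in 4c and -5.57 ± 0.45 in 8c (SD, n = 5), a difference of 1.30 (SE 0.18, 95% interval 0.89 to 1.71, adjusted p = 0.00938, limma).

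The Rad51ap1 probe was not well above background on any 4c array, so its level there is only bounded. Each dim 4c array was set at the higher of its own level and the lowest level among probes above background. On that setting Rad51ap1 was at least 1.80-fold higher in 8c than in 4c. In experiments 1, 4 and 5 the 4c array lay above that lowest level and so kept its own. The lowest level is taken over all probes, so it does not strictly cap a dim probe, and the bound is approximate. That bound takes the 8c array of experiment 2, also dim, at its measured level. With such a floor set on the dim arrays of all fractions and the fit repeated, the difference was 0.87 (adjusted p = 0.285), and with normexp it was 0.12 (adjusted p = 1). Of the 6 arrays that carried the probe into the test, 4 were 8c arrays, and in a fit with no such filter the adjusted p was 0.0319. It was lost without the experiment as a block (adjusted p = 0.548) and without experiment 1, 2 or 4 (adjusted p = 0.0694, 0.0592 and 0.0805). The other Rad51ap1 probe, above background on 3 arrays and not tested, differed by 0.19 between 8c and 4c.

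Between 4c and 2c the Rad51ap1 difference was -0.85 (SE 0.18, adjusted p = 0.0613), lower in 5 of 5 experiments by measured levels, and it did not pass. In experiments 2, 3 and 5 the probe was dim in both fractions, so the direction there is not known. With most 2c arrays dim, no bound on the fold is given. Between 8c and 2c it was 0.46 (SE 0.18, 95% interval 0.05 to 0.87, adjusted p = 0.276), higher in 4 of 5 experiments, with the probe above background on 4 arrays of 8c and 2 of 2c.

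Brca2, which acts after Brca1 in recombination, passed in no comparison. Its levels in 2c were -5.09, -7.39, -4.83, -4.53 and -4.80 in experiments 1 to 5. In 4c they were -5.89, -6.28, -5.47, -5.09 and -5.99, and in 8c -5.08, -6.42, -4.92, -3.82 and -5.11. Experiment 2 was the lowest in each fraction and was the one whose 3 arrays were below background. There the 4c array was the highest of the 3, whereas 4c was the lowest in the other 4 experiments. The difference between 4c and 2c was -0.41 (SE 0.27, 95% interval -1.02 to 0.19, adjusted p = 0.491). It was -0.69 (adjusted p = 0.183) without the 2c array of experiment 2 and -0.80 without the whole of that experiment. Between 8c and 4c it was 0.67 (SE 0.27, adjusted p = 0.622). The second Brca2 probe, above background on 6 arrays, differed by -0.74 between 4c and 2c and by 1.04 between 8c and 4c, with adjusted p of 0.348 and 0.519 in a fit over all probes.

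**Figure D2:**
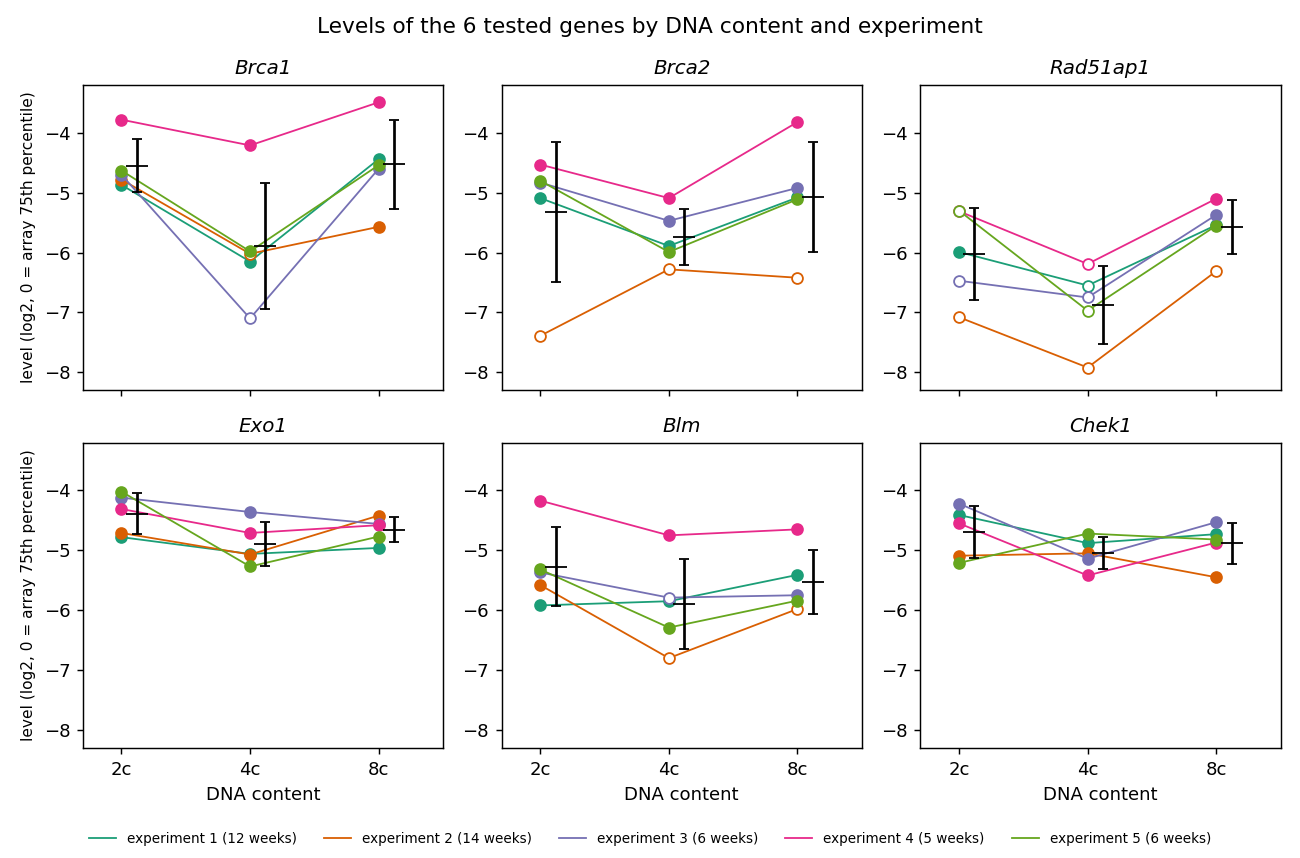
Level of each of the 6 tested genes (log2, 0 is the 75th percentile of the array) against DNA content, with a line per experiment and the mean and SD (n = 5) in black; open points were not well above background. For Brca1 and Rad51ap1 all 5 lines dip at 4c, and the line of experiment 4 (5 weeks) is the highest of the Brca1, Brca2, Rad51ap1 and Blm lines on average.

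Exo1, the resection nuclease, was measured above background on all 15 arrays by the probe tested. Its levels were -4.78, -4.71, -4.12, -4.31 and -4.02 in 2c, -5.06, -5.07, -4.36, -4.71 and -5.27 in 4c, and -4.96, -4.42, -4.56, -4.58 and -4.77 in 8c. All 5 experiments had a lower level in 4c than in 2c, and the ranges of the 3 fractions overlapped. The difference between 4c and 2c was -0.51 (SE 0.16, 95% interval -0.86 to -0.15, adjusted p = 0.161), and neither it nor the differences of 0.24 between 8c and 4c and -0.27 between 8c and 2c passed. The other Exo1 probe was above background on 2 arrays.

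Blm, the helicase, was above background on 5 arrays of 2c, 3 of 4c and 4 of 8c. Its levels were -5.92, -5.58, -5.37, -4.17 and -5.32 in 2c, -5.85, -6.80, -5.79, -4.75 and -6.29 in 4c, and -5.41, -5.98, -5.75, -4.65 and -5.84 in 8c. Experiment 4 stood highest in each fraction, and 4c was the lowest fraction in 4 of 5 experiments. The difference between 4c and 2c was -0.62 (SE 0.18, 95% interval -1.01 to -0.23, adjusted p = 0.127). It passed under 1 of 34 alternatives, without the 2c array of experiment 1 (-0.81, adjusted p = 0.0382). Between 8c and 4c the difference was 0.37, higher in 5 of 5 experiments (adjusted p = 0.639). The second Blm probe was above background on no array.

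Chek1, the checkpoint kinase of the Atr branch, was above background on every array and passed in no comparison. Its levels were -4.41, -5.09, -4.22, -4.55 and -5.21 in 2c, -4.88, -5.05, -5.14, -5.42 and -4.72 in 4c, and -4.73, -5.45, -4.53, -4.87 and -4.82 in 8c. The 3 ranges overlapped, and 4c was below 2c in 3 of 5 experiments. The differences were -0.35 between 4c and 2c (SE 0.19, 95% interval -0.77 to 0.08, adjusted p = 0.413), 0.17 between 8c and 4c (95% interval -0.26 to 0.59) and -0.18 between 8c and 2c (95% interval -0.61 to 0.25). These intervals allow changes of the size seen for Exo1 in the same comparisons.

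Over the set, 1 of the 6 tested genes passed between 4c and 2c, in which 1.32% of all tested features passed, 0.282% higher and 1.04% lower in 4c. Between 8c and 4c 1 of 6 passed, and 0.653% of all features did, 0.641% higher and 0.012% lower in 8c. Between 8c and 2c none of the 6 passed limma at an adjusted p under 0.05, against 2.39% of all features, 0.815% higher and 1.58% lower in 8c. At an unadjusted p under 0.05 there was 1 of them (Rad51ap1), beside 6.44% of all features with a higher and 8.62% with a lower level in 8c. With 6 genes a single call is a small count, and the share is given as a description. The median difference of the 6 was -0.57 between 4c and 2c, beside -0.03 for all features, 0.52 between 8c and 4c, beside 0.004, and -0.08 between 8c and 2c, beside -0.02. All 6 differences were negative between 4c and 2c, and all 6 were positive between 8c and 4c. Between 4c and 2c, 3 of the 6 (Brca1, Rad51ap1 and Exo1) were lower in all 5 experiments, as were 8.69% of all features. Between 8c and 4c, 3 of the 6 (Brca1, Rad51ap1 and Blm) were higher in all 5, as were 8.77% of all features. In experiment 2 the Rad51ap1 probe was dim on all 3 arrays and the Blm probe on those of 4c and 8c, so these directions rest there on signals near background. Between 4c and 2c the same held for Rad51ap1 in experiments 3 and 5, where its 2c and 4c arrays were dim. These 2 comparisons share the 4c arrays, so a low 4c array enters both. Probes enter the test through the arrays on which they are bright, so the 6 stand for themselves and not for the 9.

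**Figure D3:**
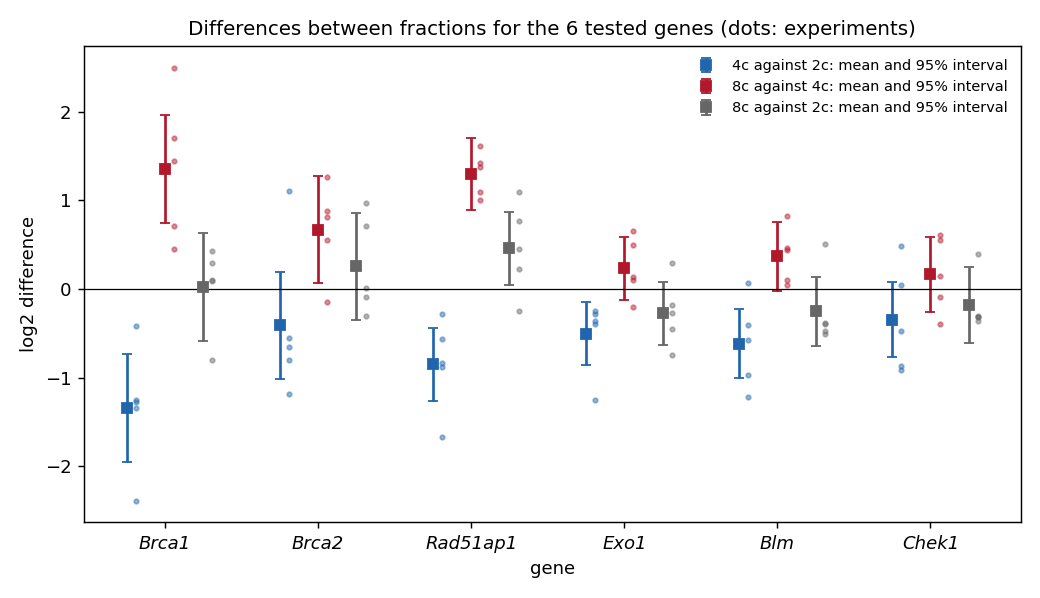
Log2 difference between fractions for the 6 tested genes; squares are fitted means with 95% intervals that are not adjusted for the number of genes, and dots are the 5 experiments. The 4c against 2c values (blue) are all below 0, from -1.34 for Brca1 to -0.35 for Chek1, and the 8c against 4c values (red) are all above 0.

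The order of the fractions within experiments shows the same levels without a fit. The 4c fraction was the lowest of the 3 in 5 of 5 experiments for Brca1 and Rad51ap1, by their measured levels. For Brca2, Exo1 and Blm it was the lowest in 4 of 5 and for Chek1 in 3 of 5. Over all features it was the lowest in 5 of 5 for 1.52% and in 4 or 5 for 8.45%. The order is not known where the arrays compared were not above background, so the Rad51ap1 count is not read against these shares: its probe was dim on all 4c arrays, on all 3 arrays of experiment 2 and on the 2c arrays of experiments 3 and 5. For Blm the 4c and 8c arrays of experiment 2 were dim. By measured levels 8c was the highest in 4 of 5 experiments for Brca1 and Rad51ap1, and 2c in 4 of 5 for Exo1 and Blm. None of these genes passed between 8c and 2c, and no share over all features is given for these counts. The counts are therefore not read as a difference between the genes. The Brca1 difference between 8c and 2c was 0.02 (95% interval -0.59 to 0.63, adjusted p = 0.979).

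Markers of other cell types moved with some of these comparisons. RNA from fewer cells of a type and from less RNA per cell cannot be told apart in such samples. Of 10 hepatocyte markers, such as Alb and Apoa1, all 10 were tested and none passed in any comparison, with median levels of 5.73 to 6.39 on the 15 arrays. The Kupffer cell list had 6 of 8 tested markers lower in the 4c fraction than in 2c (median difference -3.30), the stellate cell list 6 of 8 (median -3.16) and the sinusoidal endothelial list 3 of 9 (median -2.24). Between 8c and 2c the counts of lower markers were 7 of 8, 6 of 8 and 4 of 9, with medians of -3.69, -3.71 and -2.32. Between 8c and 4c none of these 3 lists had a member that passed. Cd163 and Lrat were above background on 5 arrays of 2c and 0 of 4c or 8c, so they entered the test only through 2c. Several others were dim on most 4c and 8c arrays, so these medians rest partly on dim arrays. Cd68 and Bgn were above background on all 15 arrays. Kupffer markers had median levels of -4.55 to -1.12 on the 2c arrays, -6.40 to -4.27 on the 4c arrays and -7.54 to -5.03 on the 8c arrays. Only 4 of 14 lymphocyte markers were tested, with a median difference of 0.08 between 4c and 2c. The part of these cells in the differences of 4c or 8c from 2c, those of Brca1, Bard1, Hrob and Cdkn1a included, was not tested.

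Transcripts of the exocrine pancreas, such as Prss1 and Cpa1, also varied between arrays. All 20 acinar markers listed were tested, with a median difference of -2.73 between 4c and 2c and 2.88 between 8c and 4c, and none passed. Their median level was between -0.92 and 5.12 on 6 arrays, namely 2c and 8c in experiment 1, every fraction in experiment 2 and 8c in experiment 3, and between -8.52 and -7.18 on the other 9. By fraction the range was -8.48 to 5.12 in 2c, -8.52 to 1.82 in 4c and -8.48 to 3.91 in 8c. Without these 6 arrays the Brca1 difference between 4c and 2c was -1.39 (adjusted p = 0.527) and the Rad51ap1 difference between 8c and 4c 1.09 (adjusted p = 0.857), in a fit that called 0 features of all in either comparison. In experiments 4 and 5, none of whose arrays held these transcripts, Brca1 differed by -0.42 and -1.35 between 4c and 2c.

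The arrays lay on 2 slides that were also 2 scan runs. The first held all of experiments 1 and 2 and, from experiment 3, the arrays for 2c and 4c. Within the first slide the Brca1 difference between 4c and 2c was -1.64 (adjusted p = 0.269) and within the second -0.89 (adjusted p = 0.617). The Rad51ap1 difference between 8c and 4c was 1.24 (adjusted p = 0.496) and 1.26 (adjusted p = 0.568). Both kept their direction, at fewer arrays per fit.

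In both comparisons with 4c, the median differences of the other repair and checkpoint lists were smaller than those of the 6 tested genes. Single genes of these lists, such as Bard1 and Ube2t, differed by more than any of the 6. Of 41 other homologous recombination genes 33 were tested, and 2 were higher in 8c than in 2c. Bard1, the partner of Brca1 in a ubiquitin ligase, was one, with a difference of 2.30 (SE 0.43, adjusted p = 0.0215, higher in 5 of 5 experiments), above background on 4 arrays of 8c and 1 of 2c. It was also at least 2.29-fold higher in 8c than in 4c (adjusted p = 0.0338), where no 4c array was above background. That bound takes the dim 8c array at its measured level. Bard1 was above background on 5 arrays in all and so reached the test through 8c. Its differences, and their direction by experiment, rest mostly on dim 2c and 4c arrays. In a fit without the filter, added for the genes of these lists after the data had been seen, it passed neither between 8c and 2c (adjusted p = 0.0541) nor between 8c and 4c (0.0844). Hrob, which in human cells recruits the MCM8-MCM9 helicase to sites of recombination, was the other, with a difference of 1.05 (SE 0.15, adjusted p = 0.00665, 5 of 5 experiments). It was above background on 4 arrays of 8c and 1 of 2c, so the difference and its direction by experiment rest mostly on dim 2c arrays. Without the filter the adjusted p of Hrob was 0.0243. None of the 33 passed between 4c and 2c, and their medians were 0.03 between 8c and 2c, -0.16 between 4c and 2c and 0.19 between 8c and 4c.

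Of 20 other Fanconi anaemia genes 16 were tested and none passed, with a median of -0.03 between 8c and 2c, -0.11 between 4c and 2c and 0.06 between 8c and 4c. Ercc1, a subunit of a structure-specific nuclease, and Cenps, a histone-fold partner of Fancm, were named by the rule for a list with no call and differed by at most 0.15 in either direction. Ube2t, the ubiquitin-conjugating enzyme for Fancd2 and Fanci, had the largest difference of the list, 2.60 between 8c and 2c (SE 0.61, adjusted p = 0.061) and 3.14 between 8c and 4c (adjusted p = 0.0611), both in 5 of 5 experiments. Its probe was above background on 1 array of 2c, 1 of 4c and 4 of 8c, so it reached the test mainly through 8c. Both differences rest mostly on dim 2c and 4c arrays, and no fit without the filter is given for it. The gene was named after its values had been seen.

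Of 32 other checkpoint genes 28 were tested. Cdkn1a, the cyclin-dependent kinase inhibitor p21 that p53 induces, was higher in 8c than in 2c by 0.76 (SE 0.14, adjusted p = 0.0242), in 5 of 5 experiments and above background on all arrays (adjusted p = 0.0728 without the filter). Mdc1, the scaffold that binds phosphorylated H2ax at breaks, was higher in 8c than in 4c by 0.52 (SE 0.09, adjusted p = 0.0273), also in 5 of 5 (adjusted p = 0.142 without the filter). None passed between 4c and 2c, where the median was -0.14. Atm, the kinase upstream of Chek2, was above background on all 15 arrays and differed by at most 0.22 between fractions, with adjusted p between 0.688 and 0.896. Atr, the kinase upstream of Chek1, was not tested, as it lacked a probe above background on 5 arrays. Of 11 end joining genes 10 were tested, and Xrcc4, the partner of DNA ligase IV, was the single call, lower in 4c than in 2c by a log2 difference of -0.42 (SE 0.08, adjusted p = 0.0424, 5 of 5 experiments). Without the filter its adjusted p was 0.179.

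Genes of the cell cycle were examined beside them. Of 33 S phase genes 28 were tested, and 7 had a lower level in 4c than in 2c, none a higher one, while 6 were higher in 8c than in 4c. Between 8c and 2c, 2 of the 28 were higher in 8c and 1 was lower. Their medians were -0.39 between 4c and 2c, 0.28 between 8c and 4c and -0.08 between 8c and 2c. Of 30 genes of G2 and mitosis 23 were tested, and 20 were higher in 8c than in 2c (median 2.40). Between 8c and 4c 19 were higher in 8c (median 3.01), and none was called between 4c and 2c (median -0.38). Several of these genes were above background on few 2c and 4c arrays and reached the test mainly through 8c. The sizes of their differences rest there on dim arrays. Mki67 and Cdk1 were above background on 5 and 4 arrays of 2c and on all 5 of 8c. Mki67, a marker of cycling cells, was higher in 8c than in 2c by 2.37 (SE 0.24, adjusted p = 0.00121), and Cdk1, the mitotic kinase, by 2.99 (SE 0.34, adjusted p = 0.00247). The 6 tested recombination and checkpoint genes had no such rise between 8c and 2c, with differences from -0.27 to 0.46. Pcna, the replication clamp, differed by -0.40 between 4c and 2c (SE 0.11, adjusted p = 0.121) and did not pass.

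**Figure D4:**
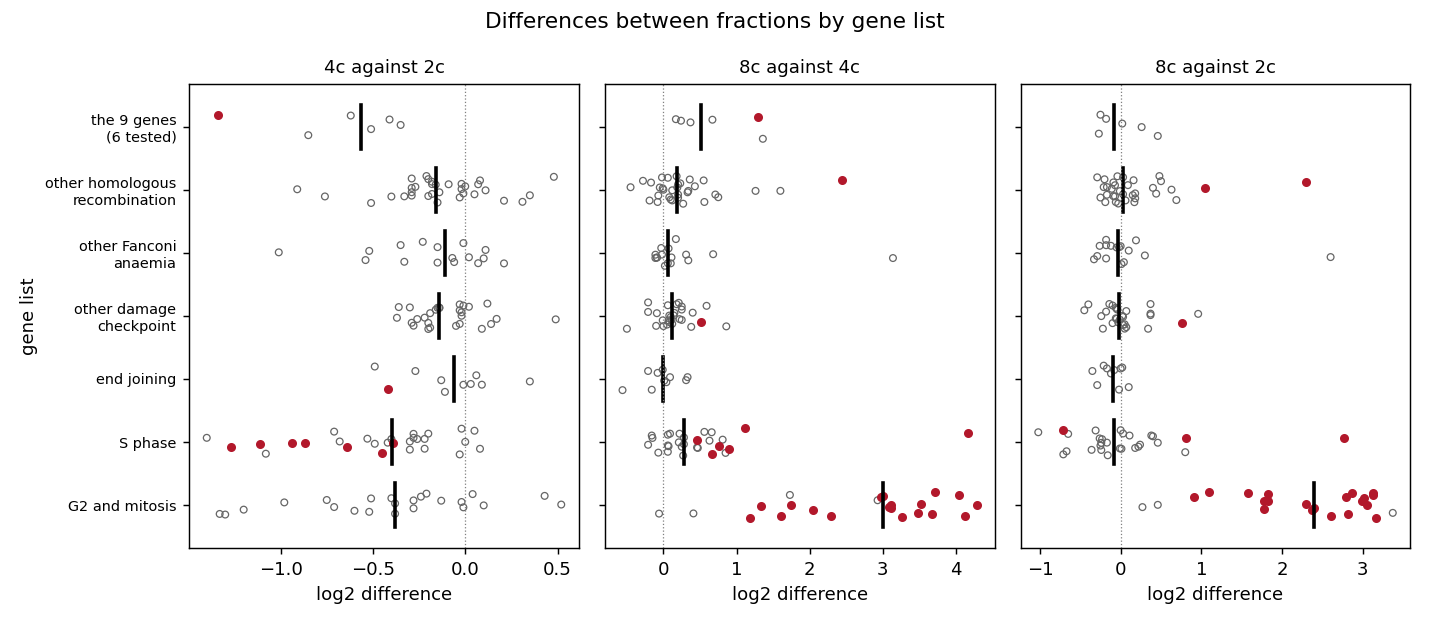
Log2 difference of each tested gene (points, red where adjusted p was under 0.05) by gene list in the 3 comparisons, with the median of the list as a black bar; each panel has its own horizontal scale. The bar of the 6 tested genes lies at -0.57, 0.52 and -0.08, near those of the S phase list (-0.39, 0.28 and -0.08), while the G2 and mitosis list lies at 3.01 and 2.40 in the 2 comparisons with 8c.

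The features whose levels most resembled the mean of the 6 tested genes were named by Pearson's r over the 15 arrays, after the mean of each experiment had been subtracted. They were Prim1 (r = 0.96), the small subunit of the primase, Gins1 (0.94), a subunit of the replicative helicase complex, Pabpc1l2a (0.93), and Mcm5 (0.93) and Mcm7 (0.91), subunits of the same helicase. The r of the members with the mean they form was 0.90 for Brca1, 0.88 for Rad51ap1, 0.69 for Brca2, 0.68 for Blm, 0.67 for Exo1 and 0.37 for Chek1. Pcna had 0.83, Cdk1 0.70 and Mki67 0.65. These are descriptions over arrays that share their hybridisation and scaling, and 5 were the highest of all tested features by selection. Prim1 was lower in 4c than in 2c by a log2 difference of -0.45 (SE 0.08, adjusted p = 0.0334) and higher in 8c than in 4c by 0.46 (adjusted p = 0.0251), and differed by 0.01 between 8c and 2c. Mcm5 was lower in 4c than in 2c (-1.11, SE 0.20, adjusted p = 0.0363), and Gins1 was higher in 8c than in 4c (0.90, SE 0.16, adjusted p = 0.033).

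Age varied between the experiments. The mean over the fractions of Brca1 was -5.16, -5.46, -5.47, -3.83 and -5.05 in experiments 1 to 5. The youngest rats, those of experiment 4 at 5 weeks, also had the highest mean of Brca2 (-4.48), Rad51ap1 (-5.53) and Blm (-4.53). The oldest, those of experiment 2 at 14 weeks, had the lowest mean of Brca2 (-6.69), Rad51ap1 (-7.11), Blm (-6.12) and Chek1 (-5.20). In experiment 2 the Brca2 and Rad51ap1 probes were dim on all 3 arrays and the Blm probe on those of 4c and 8c. Their means there, and the slopes that use them, rest on signals near background. None of the 6 genes passed a test of the slope with age over the 5 experiment means, in which 0.0599% of all features passed, and 2 of the 6 (Brca2 and Rad51ap1) had an unadjusted p under 0.05, beside 15.4% of all features. The steepest slope was that of Brca2, -0.167 per week on the log2 scale (SE 0.048, adjusted p = 0.233, limma). With an experiment left out it ran from -0.22 to -0.08 and was flattest without experiment 2, whose 3 arrays were below background for Brca2, and with normexp it was -0.031. For the change of the 8c against 2c difference with age, none of the 6 passed or had an unadjusted p under 0.05, while 0% of all features passed and 4.83% had such an unadjusted p. The rats of experiments 1 and 2 were the oldest, and all their arrays lay on the first slide, so age and slide overlapped.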

How the data were processed

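RNA of 15 sorted hepatocyte fractions was measured on one-colour (Cy3) Agilent arrays. Feature Extraction 11.5.1.1 read the arrays, per the file headers, whereas the submitters' processing notes name 10.7.3.1. The authors' background-corrected spot intensity, which the deposited files hold on a linear scale, was the starting value. The deposited value table held the same intensity with no scaling between arrays (r of 0.99999 or more on the log2 scale). There were 62976 spots per array, of which 4259 were controls and 0 saturated.

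Control spots and, on each array, 264 to 539 outlier spots were dropped, and the mean over the spots of each of 45598 probes was taken. Log2 signals were set relative to the 75th percentile of the 16211 probes above background on all arrays. Probes were named through accession (21109), symbol (6684) or synonym (424), and 17381 kept the name in the file unless their description held a symbol. A feature was tested when above background on at least 5 of 15 arrays. The fits used limma 3.58.1 (R 4.3.3, lmFit then eBayes) with experiment as a block, and Benjamini-Hochberg adjustment ran over 16683 features with 0.05 as the threshold. P-values are two-sided, and the number of arrays limits their precision. The procedure was tested on simulated data.

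The fractions of an experiment share the age in the labels. Deviations from the group means correlated with a median r of 0.589 (0.04 to 0.791) between arrays of the same experiment and -0.163 between experiments, so the number was kept as a block. The labels call the experiments independent and do not say whether animals were pooled. Where a probe was above background on no array of a group, its fold is a bound ("at least") with each of those arrays at the higher of its own level and the lowest level among probes above background. The other group keeps its measured levels, and no fold is given where most of its arrays were dim.

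The named genes are the 9 genes, the genes of the 4 repair and checkpoint lists that passed (or else the 2 brightest of a list), Atm, Atr, Mki67, Pcna and Cdk1, and the 5 features most like the mean of the tested genes. Ube2t was named outside this rule, the S phase, mitosis and cell type lists are given by counts and medians, and a further gene of the rule is not reported here. The genes and lists were chosen with earlier results of these data known. Alternatives covered block, scaling, background correction, filter, floor, probe choice, value table, slide, each array or experiment left out, and arrays with acinar transcripts (marker median no more than 6 log2 units below the scaling point). No annotation of rn4 was used here, so the part of a gene under a probe is not stated.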

Additional observations from a re-analysis of the deposited data

Results flagged for a closer look

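In the 2c fraction the level of Brca1 in experiment 4, the one with 5-week-old rats, was -3.78, far above the next highest of the 5 arrays at -4.63. The gap took up 0.775 of the range of the group, over the critical value of 0.71 for 5 samples. In the same fraction the level of Brca2 in experiment 2, with 14-week-old rats, was -7.39, below the next lowest array at -5.09, and the gap took up 0.804 of the range. That Brca2 array was not above background for the probe, so its level is only bounded, by the floor of the array at -6.43. With dim arrays at the floor, a check added after the data had been seen, the gap was 0.706 of the range, just under the critical value, and the Brca2 array no longer stood out. The Brca1 array in 2c was not affected, while the 4c array of experiment 4 then stood out for Brca1 (-4.21, gap 0.91 of the range). Of 18 groups examined 2 stood out at the measured levels, and chance alone marks about 1 in 20.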

How the results depend on the processing

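With no replicate block, 0 of the 6 genes passed between 4c and 2c and 0 between 8c and 4c, against 1 in each with the block (Brca1 and Rad51ap1). The pairing by experiment thus bore on both calls, and no other call changed. Slide in place of experiment as the block, normexp, a filter at all 15 arrays (which tested 2 of the genes), the arrays of 1 slide alone and the arrays without acinar transcripts also gave 0 in both. Other scaling points, quantile normalization and no filter gave 0 between 4c and 2c and kept 1 between 8c and 4c. With dim arrays at the floor the single call between 8c and 4c was Brca1 (1.14, adjusted p = 0.0267) in place of Rad51ap1. Leaving out an array or an experiment gave 0 to 1 calls between 4c and 2c and 0 to 2 between 8c and 4c, where the 2 came without the 8c array of experiment 2 (Brca1 then 1.58, adjusted p = 0.0249).

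The Brca1 difference between 4c and 2c was negative under all 34 alternatives (-1.64 to -0.36, adjusted p 0.0313 to 0.617). That of Rad51ap1 between 8c and 4c was positive under all 34 (0.12 to 1.39, adjusted p 0.00212 to 1) and passed under 24. None of the values that changed sign passed. Between 8c and 2c, Brca1 was -0.157 with slide as the block, -0.093 with normexp, -0.369 within slide 1 and -0.062 without the acinar arrays. Brca2 and Rad51ap1 were -0.093 with normexp, Exo1 0.067 and Blm 0.085 within slide 1, and Rad51ap1 -0.019 and Chek1 0.039 within slide 2. Chek1 was -0.007 between 8c and 4c within slide 1. With arrays or experiments left out the 8c against 2c difference ran from -0.13 to 0.24 for Brca1 and from -0.023 to 0.42 for Brca2. The age dependence per week was 0.016 for Brca1 and 0.027 for Chek1 with normexp and -0.005 for Brca2 at the floor, and with experiments left out it ran from -0.12 to 0.038 for Brca1 and -0.034 to 0.11 for Brca2. The age slope of Chek1 ran from -0.041 to 0.028 with experiments left out. The cause of these changes was not tested.

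Over all features, 47 were higher and 174 lower in 4c than in 2c, 73 and 113 with the percentile over all probes, 48 and 105 with quantile normalization, 7 and 47 with normexp, 0 and 3 with no block, and none without the filter, which tested 35305. Between 8c and 2c the main split of 136 higher and 263 lower became 224 and 190, 176 and 202, 67 and 117, and 6 and 31 under the first 4 of these, and 72 and 154 without the filter. Signals this close to background limit every value here.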
